A study of Mus musculus with 6 samples.

Results

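The 10 genes described here encode enzymes that release polyunsaturated fatty acids from membrane phospholipids and that make or break down prostaglandins. They were picked by symbol (Pla2g4a, Pla2g6, Pla2g12a, Ptgs1, Ptgs2, Ptgds, Ptges, Ptges2, Ptges3 and Hpgd), and each had 1 row among the 25124 gene models of the deposited count table. All 10 also passed the filter on low counts, which left 14685 genes for testing. The samples were retinas of C57BL/6J mice aged 4 months, either carrying the C234W substitution in Elovl2 or wild type, with 3 poly-A RNA libraries of each genotype. Whether the C234W allele was carried on 1 or both chromosomes, and the sex of the animals, are not given in the labels used here. Elovl2 is the elongase that lengthens precursors of docosahexaenoic acid. The C234W libraries were FS3A, FS3B and FS5A, and the wild-type libraries WT1A, WT2A and WT2B. The prefix FS is not explained by the labels; the counting command kept in the header lists 3 C234W and 3 wild-type inputs, and the 3 columns marked WT match the wild-type titles. The other 3 were therefore taken as C234W, and every direction below rests on that.

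Phospholipases A2 cut the fatty acid from the middle carbon of the glycerol backbone, the position where arachidonic and docosahexaenoic acid are mostly stored. Cyclooxygenases turn free arachidonic acid into prostaglandin H2, terminal synthases turn that into prostaglandin D2, E2 and others, and a dehydrogenase inactivates them. In the retina, prostaglandins are studied for their part in blood flow, vessel growth and inflammation, and photoreceptor membranes are among the richest stores of docosahexaenoic acid in the body.

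Counts in genes ran from 15804645.5 to 19298613 per C234W library and from 14184093 to 18710329 per wild-type library. WT1A stood apart from the other wild-type libraries. Its correlation across genes, which are not independent replicates, was 0.969 to 0.977 with the C234W libraries, against 0.968 with WT2A and 0.965 with WT2B (Pearson r of log2(CPM + 1)). WT2A and WT2B correlated at 0.990 with each other. WT2A and WT2B share a number in their names, as do FS3A and FS3B, and whether each library is a separate animal is not given in the labels. Without WT1A the wild-type group is WT2A and WT2B alone, so calls in that setting may rest on libraries of the same animal. The p-values therefore measure the spread between these libraries, which may be technical. Elovl2 itself had 82.0, 90.1 and 116 CPM in FS3A, FS3B and FS5A, against 142, 138 and 136 CPM (counts relative to the TMM-scaled library total) in WT1A, WT2A and WT2B, a log2 fold change of -0.53 (SE 0.165, edgeR adjusted p = 0.101). A substitution need not alter the transcript, so this level does not check the labels. In bulk tissue, fewer cells of a type and less RNA per cell cannot be told apart.

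None of the 10 genes passed the test between genotypes (quasi-likelihood test of edgeR with p adjusted over all genes by Benjamini-Hochberg, threshold 0.05), where 1.46% of tested genes did (0.184% higher and 1.28% lower). The prostaglandin E synthases Ptges2 and Ptges3 were measured lower in C234W retinas, at 0.519 and 0.572 times the wild-type level, and the cytosolic phospholipase Pla2g4a at 3.54 times it. Their adjusted p-values were 0.0520, 0.0640 and 0.0577. The 215 genes that passed had adjusted p-values from 0.0484 to 0.0498 (median 0.0484), close under the threshold. At an unadjusted p under 0.05 there were 5 of the 10, against 25.4% of tested genes: Pla2g4a and Hpgd higher (11.9% of tested genes) and Ptges2, Ptges3 and Pla2g12a lower (13.5%). These 5 were also the members whose groups did not overlap, against 29.1% of tested genes, with 2 higher (12.6%) and 3 lower (16.4%). DESeq2 called 3 members (Ptges2, Ptges3 and Pla2g4a), against 11.9% of the genes it tested, and limma-voom called 1 (Ptges2), against 1.63%. Without WT1A, edgeR called 4 members (Pla2g4a, Ptgs2, Ptges2 and Ptges3), against 18.5% of the 14988 genes then tested. The median log2 fold change of the 10 was -0.117, and 0.023 over all tested genes.

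**Figure D1:**
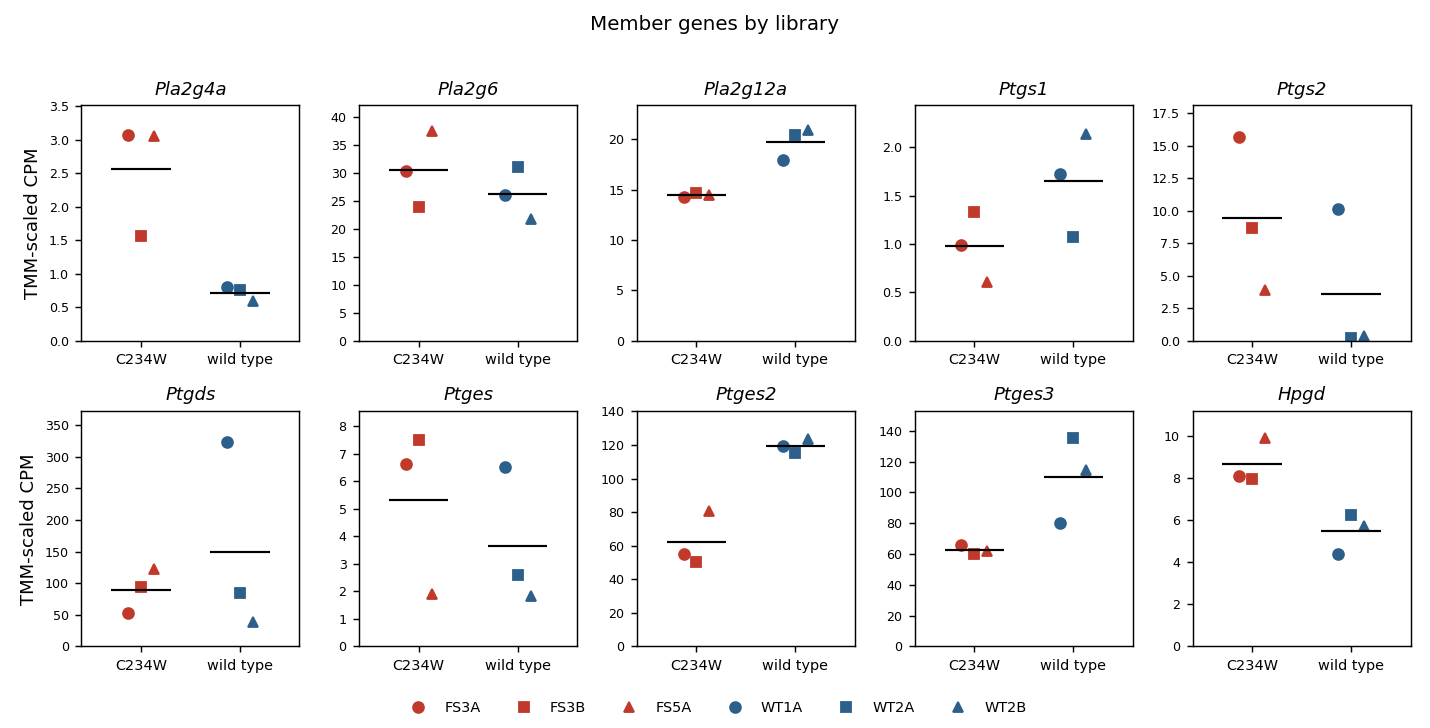
TMM-scaled CPM (vertical axis, starting at 0) of the 10 genes in each C234W (red) and wild-type (blue) library; horizontal bars are group means over 3 libraries. The groups are apart for Pla2g4a, Pla2g12a, Ptges2, Ptges3 and Hpgd, while WT1A lies far above WT2A and WT2B for Ptgs2, Ptgds and Ptges.

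Per length of the counted transcript, the 10 genes spanned a wide range of levels. Ptgds, the lipocalin-type prostaglandin D synthase that also binds retinoids, was the highest, at 113 ± 43.2 CPM per kb in C234W and 187 ± 192 CPM per kb in wild type (SD, n = 3 each). It lay above 97.9% of tested genes by its mean over the 6 libraries. The next were Ptges2, at 31.9 ± 8.41 and 61.5 ± 2.25 CPM per kb, and Ptges3, at 32.3 ± 1.49 and 56.5 ± 14.3 CPM per kb, in C234W and wild type (SD, n = 3 each). These neighbours in the order did not differ beyond their spread: Ptges2 was 0.835, 0.837 and 1.30 times Ptges3 in FS3A, FS3B and FS5A, and 1.49, 0.852 and 1.084 times it in WT1A, WT2A and WT2B. Pla2g12a and Pla2g6 followed at 9.99 and 7.69 CPM per kb over all libraries, then Hpgd at 4.12. Ptgs2, Ptges, Pla2g4a and Ptgs1 formed the low end, at 1.46, 1.23, 0.577 and 0.459 CPM per kb over all libraries. Ptgs1 lay above 6.13% of tested genes.

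**Figure D2:**
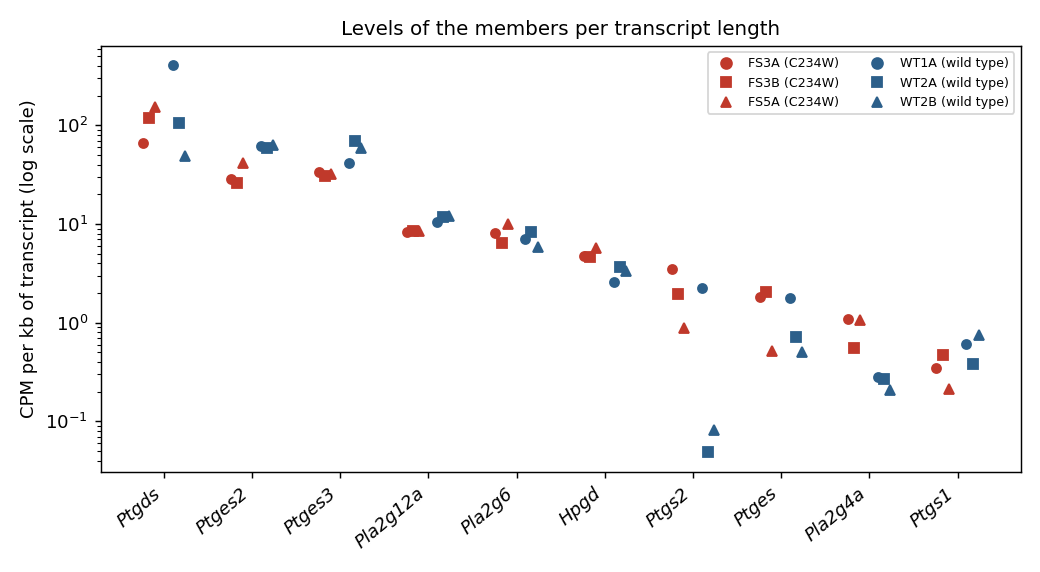
Level per kilobase of counted transcript (CPM per kb, log axis) of each member in the C234W (red) and wild-type (blue) libraries, ordered by the mean over all 6. Ptgds, Ptges2 and Ptges3 are the 3 highest; Ptgs2 ranges over more than any other member, from 0.0484 CPM per kb in WT2A to 3.52 CPM per kb in FS3A.

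Of the fatty acid-releasing enzymes, Pla2g4a encodes the calcium-dependent cytosolic phospholipase that prefers arachidonic acid. It had 3.07, 1.57 and 3.05 CPM in FS3A, FS3B and FS5A, against 0.797, 0.754 and 0.589 CPM in WT1A, WT2A and WT2B. Every C234W library lay above every wild-type library, with FS3B the lowest of the C234W libraries. The level rested on few counts: 55.5, 33 and 50.5 in the C234W libraries and 12, 13.5 and 8 in the wild-type libraries. Its log2 fold change was 1.82 (SE 0.421, edgeR adjusted p = 0.0577). Without WT1A it was 1.91 and passed (adjusted p = 0.0368), and it lay between 1.67 and 2.08 over all alternatives, with adjusted p from 0.00905 to 0.378.

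Pla2g4a lies on chromosome 1 (mm10, 149829619 to 149961290, minus strand, NM_008869) near the cyclooxygenase gene Ptgs2 (150100031 to 150108234, plus strand, NM_011198). The genes point away from each other, with 138741 bases between their starts. Between them lie 2 other RefSeq genes, Gm19136 and Ptgs2os. An annotated exon of Ptgs2os, on the minus strand, overlaps the 250 bases before the Ptgs2 start. The 250 bases before the starts of Pla2g4a and Ptgs2 are shown because these genes had the highest fold changes among the members, and those of Ptges2, on chromosome 2, because it had the smallest p. They are from RefSeq on GRCm38.p6, the assembly of mm10, 5′ to 3′ on the strand of the gene, and capitals mark matches to the motifs searched.
Pla2g4a, chr1:149961291-149961540, strand -: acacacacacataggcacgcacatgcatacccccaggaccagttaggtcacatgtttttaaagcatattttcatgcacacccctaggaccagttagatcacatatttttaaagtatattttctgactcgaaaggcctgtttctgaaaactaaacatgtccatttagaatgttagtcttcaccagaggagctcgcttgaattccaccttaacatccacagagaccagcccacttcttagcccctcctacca
Ptgs2, chr1:150099781-150100030, strand +: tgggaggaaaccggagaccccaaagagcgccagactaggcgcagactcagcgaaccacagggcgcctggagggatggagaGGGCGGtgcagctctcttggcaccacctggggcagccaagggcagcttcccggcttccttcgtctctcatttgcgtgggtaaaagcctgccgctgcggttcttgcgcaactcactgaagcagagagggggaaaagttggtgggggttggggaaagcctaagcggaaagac
Ptges2, chr2:32395640-32395889, strand +: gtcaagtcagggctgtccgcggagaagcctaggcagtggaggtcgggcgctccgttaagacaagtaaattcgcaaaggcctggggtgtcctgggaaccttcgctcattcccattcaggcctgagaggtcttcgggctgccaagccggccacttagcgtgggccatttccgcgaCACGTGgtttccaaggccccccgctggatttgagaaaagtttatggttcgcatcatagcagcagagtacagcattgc
The windows searched ran from 250 bases before to 50 bases from each RefSeq start, on both strands, for the TATA box (TATAAA), the CCAAT box, the GC box (GGGCGG), the E-box (CACGTG), the cAMP response element half-site (TGACG), the AP-1 site (TGANTCA) and the NF-kB consensus. All 10 members had such a window. In the Pla2g4a window at the start of the counted transcript, none of these motifs was found. A second RefSeq start of Pla2g4a, at 149922439, had TATAAA on the minus strand 200 bases before it and CCAAT at base 10 after it. These motifs were in 13.6% and 37.4% of all RefSeq windows. Ptgs2 had GGGCGG 170 bases before its start, a motif in 35.7% of all 32841 RefSeq windows of this length. It also had TGACG on the minus strand and CACGTG at bases 14 and 17 after its start, motifs in 20.8% and 7.15% of windows. These matches share 2 bases, and the capitals here mark both matches in full:
Ptgs2 after its start, chr1:150100038-150100057, strand +: ccactaCGTCACGTGgagtc
Ptges2 had CACGTG 77 bases before its start. Ptges3, whose sequence is not shown, stood out by its 38 CG pairs in the 250 bases, more than in 98.1% of windows, against 15 for Ptges2, 13 for Ptgs2 and 3 for Pla2g4a. These are letter matches, and no binding was measured.

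Pla2g6 encodes the calcium-independent phospholipase of group VI, which takes part in membrane turnover. It had 30.4, 24.0 and 37.5 CPM in FS3A, FS3B and FS5A, against 26.2, 31.1 and 21.9 CPM in WT1A, WT2A and WT2B. The groups overlapped, and the log2 fold change of 0.21 (SE 0.215, edgeR adjusted p = 0.560) was no larger than its error. Over all alternatives it lay between 0.0428 and 0.386.

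Pla2g12a, a secreted phospholipase of group XII, had 14.23, 14.7 and 14.5 CPM in FS3A, FS3B and FS5A, against 17.9, 20.5 and 20.9 CPM in WT1A, WT2A and WT2B. The C234W libraries lay within 1.03 times of each other, and all were below the wild-type libraries. This log2 fold change of -0.45 (SE 0.174) missed the threshold (edgeR adjusted p = 0.159). The counted model is a non-coding RefSeq transcript (NR_104611) on chromosome 3 whose start, at 129878606, lies before the RefSeq start of the window searched, at 129881184, so its level depends on this choice of isoform.

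The cyclooxygenases were low in both genotypes. Ptgs1, the constitutive form, had 0.985, 1.33 and 0.610 CPM in FS3A, FS3B and FS5A, against 1.73, 1.08 and 2.13 CPM in WT1A, WT2A and WT2B. The groups overlapped, through WT2A, and the log2 fold change was -0.73 (SE 0.448, edgeR adjusted p = 0.333). Its counts, between 10 and 29 per library, limit the precision.

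Ptgs2, the inducible form, varied most. It had 15.7, 8.63 and 3.90 CPM in FS3A, FS3B and FS5A, against 10.1, 0.215 and 0.368 CPM in WT1A, WT2A and WT2B. WT1A lay among the C234W libraries, and WT2A and WT2B held 4 and 5 counts. The log2 fold change was 1.41 with an SE of 1.19 (edgeR adjusted p = 0.487). Limma-voom, which weights the log values of single libraries, gave 3.11 for the same libraries. Without WT1A, which leaves WT2A and WT2B as the only wild-type libraries, the log2 fold change was 5.03 and passed (edgeR adjusted p = 0.0124). Over all alternatives the log2 fold change ran from 0.655 to 5.03, with adjusted p from 0.0124 to 0.896.

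The ratio of the cyclooxygenases also differed between libraries. Per length, Ptgs2 was at 10.2, 4.17 and 4.105 times Ptgs1 in FS3A, FS3B and FS5A, and at 3.75, 0.128 and 0.111 times it in WT1A, WT2A and WT2B. Ptgs2 was thus the more abundant form in the C234W libraries and in WT1A, and Ptgs1 in WT2A and WT2B.

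Markers of gliosis and immediate early genes were set beside Ptgs2 after its values were seen. The summed level of 15 gliosis genes was 1855, 1284 and 509 CPM in FS3A, FS3B and FS5A, against 793, 473 and 524 CPM in WT1A, WT2A and WT2B. Gfap, the glial filament of stressed Müller cells, had 248, 99.4 and 26.5 CPM in the same C234W libraries, against 46.8, 25.3 and 20.4 CPM in the wild-type libraries. The summed level of 12 immediate early genes was 1608, 1355 and 976 CPM in FS3A, FS3B and FS5A, against 1331, 713 and 746 CPM in WT1A, WT2A and WT2B. Fos had 245, 229 and 119 CPM in those C234W libraries, against 252, 71.9 and 63.1 CPM in the wild-type libraries, with a log2 fold change of 0.62 (edgeR adjusted p = 0.511). Jun, another subunit of AP-1, had the smallest adjusted p of the early genes and was lower, with 57.9, 56.4 and 45.4 CPM in the C234W libraries, against 72.9, 113 and 119 CPM in the wild-type libraries (log2 fold change -0.94, edgeR adjusted p = 0.0571). WT1A had the highest wild-type value in both sums, as it had for Ptgs2. The early genes were mixed in direction, 7 with a log2 fold change above 0 and 5 below it (Jun, Arc, Atf3, Fosb and Dusp1), against 13 above and 2 below for the gliosis genes. At an unadjusted p under 0.05, 4 of 12 early genes were higher and 1 lower, and 6 of 15 gliosis genes were higher and 0 lower, where 11.9% of tested genes were higher and 13.5% lower. None of either list passed in edgeR, and DESeq2 called 2 of each, against 11.9% of the genes it tested. None of these genes was at 0, and their part in the values of Ptgs2 was not tested.

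Ptgds had 53.3, 94.5 and 122 CPM in FS3A, FS3B and FS5A, against 324, 84.6 and 38.8 CPM in WT1A, WT2A and WT2B. WT1A was the highest and WT2B the lowest of the 6 libraries, so the C234W values lay inside the wild-type range. The log2 fold change was -0.73 (SE 0.706, edgeR adjusted p = 0.549), and without WT1A it was 0.544, in the opposite direction. Over all alternatives it ran from -1.18 to 0.544, and none passed.

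The pigment epithelium, a layer that can adhere to a dissected retina, is one source of Ptgds in the eye. The 12 markers of this layer, none at 0, summed to 451, 520 and 409 CPM in FS3A, FS3B and FS5A, against 1249, 865 and 859 CPM in WT1A, WT2A and WT2B. In edgeR 0 of 12 passed. At an unadjusted p under 0.05, 1 was higher and 2 lower, where 11.9% of tested genes were higher and 13.5% lower. DESeq2 called 1 of the 12, against 11.9% of the genes it tested. The 11 that are not also Müller glia markers summed to 117, 172 and 155 CPM in FS3A, FS3B and FS5A, against 797, 191 and 82.0 CPM in WT1A, WT2A and WT2B. Of these 11, 1 was higher and 1 lower at an unadjusted p under 0.05, and DESeq2 called 0. By log2 fold change 9 of the 12 were below 0, and Best1, Mlana and Pmel were above it. The chloride channel gene Best1 had 0.766, 1.04 and 0.976 CPM in the C234W libraries, against 0.399, 0.108 and 0.294 CPM in the wild-type libraries (edgeR adjusted p = 0.0957). Rpe65, the isomerase of the visual cycle, had 10.2, 14.5 and 11.5 CPM in the C234W libraries, against 60.6, 14.3 and 7.28 CPM in the wild-type libraries (edgeR adjusted p = 0.318). WT1A was the highest and WT2B the lowest library in the sum of 11 as in Ptgds. The 10 markers of optic nerve oligodendrocytes, another source of Ptgds, summed to between 71.0 and 80.1 CPM in C234W and 74.0 and 94.3 CPM in wild type, and 1 of them, Ermn, fell (log2 fold change -1.61, edgeR adjusted p = 0.0493). The 11 markers of leptomeninges and fibroblasts summed to between 70.7 and 80.1 CPM in C234W and 96.4 and 116 CPM in wild type, and Slc22a6 was at 0 in all 6 libraries. Most of that sum was Igf2, a growth factor gene, with 64.4, 60.7 and 51.0 CPM in the C234W libraries, against 82.2, 84.5 and 107 CPM in the wild-type libraries (edgeR adjusted p = 0.0731). Of the 7 tested markers of that list 4 (Col1a1, Col1a2, Pdgfra and Foxc1) had a log2 fold change above 0, and the median was 0.47. The part of these cells in the level of Ptgds was not tested.

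**Figure D3:**
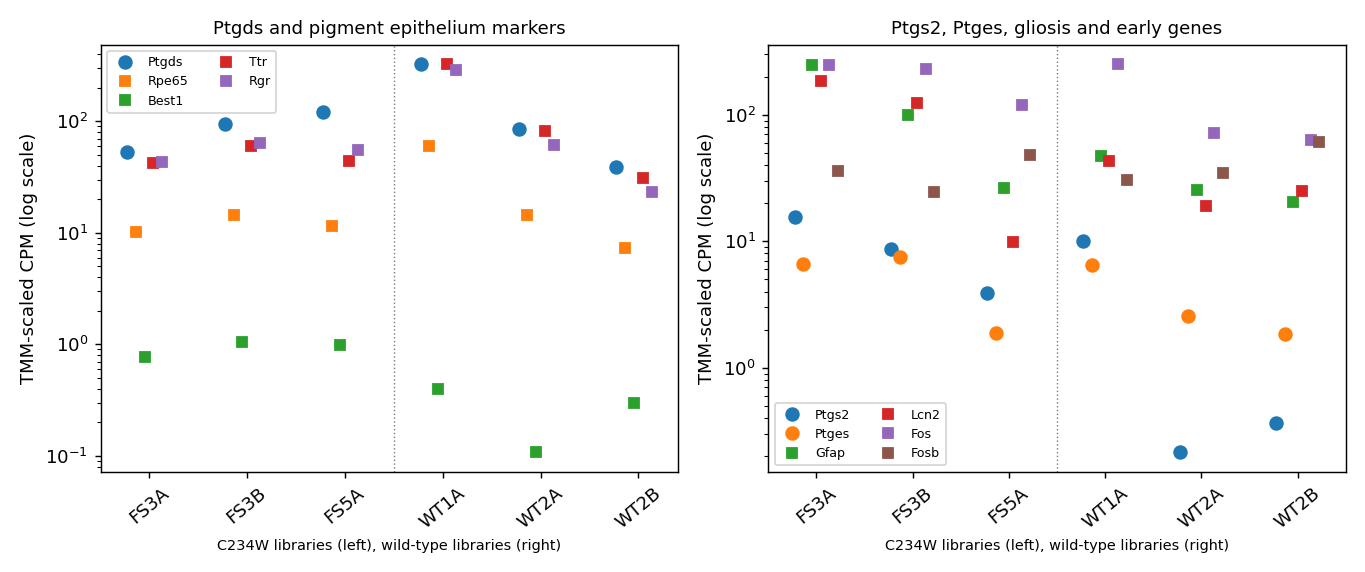
TMM-scaled CPM (log axis) in each C234W library (left of the dotted line) and wild-type library (right) for Ptgds with 4 pigment epithelium markers (left panel), and for Ptgs2 and Ptges with gliosis and immediate early genes (right panel); circles are members and squares are markers. Ptgds, Ttr, Rgr and Rpe65 are highest in WT1A; Ptgs2 in WT1A lies among the C234W libraries.

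The prostaglandin E synthases include an inducible form, Ptges, which is coupled to Ptgs2, and the more constant Ptges2 and Ptges3. Ptges had 6.62, 7.49 and 1.89 CPM in FS3A, FS3B and FS5A, against 6.51, 2.58 and 1.84 CPM in WT1A, WT2A and WT2B. FS3A, FS3B and WT1A were high and the other libraries low, in both genotypes. The log2 fold change was 0.56 (SE 0.585, edgeR adjusted p = 0.578), and without WT1A it was 1.27 and did not pass.

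Ptges2, the membrane-associated form on chromosome 2 (32395890 to 32402740, plus strand, NM_133783), had 55.0, 50.4 and 80.7 CPM in FS3A, FS3B and FS5A, against 119, 115 and 124 CPM in WT1A, WT2A and WT2B. The wild-type libraries lay within 1.076 times of each other, and every C234W library was below them, FS5A the nearest. Between genotypes the log2 fold change was -0.94 (SE 0.195, edgeR adjusted p = 0.0520). It passed by DESeq2, by limma-voom, with no filter on low counts and without WT1A, where it was -0.941 (adjusted p = 0.0249). Over all alternatives the log2 fold change ran from -1.18 to -0.770, with adjusted p from 0.00154 to 0.378.

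Ptges3 encodes the cytosolic form, also known as p23, a co-chaperone of Hsp90. It had 66.0, 60.2 and 62.3 CPM in FS3A, FS3B and FS5A, against 80.1, 135 and 114 CPM in WT1A, WT2A and WT2B. The C234W libraries lay within 1.095 times of each other, and WT1A was the wild-type library nearest to them. For Ptges3 the log2 fold change was -0.81 (SE 0.198, edgeR adjusted p = 0.0640), and without WT1A it was -0.984 and passed (adjusted p = 0.0124). Over all alternatives it ran from -0.984 to -0.625, with adjusted p from 0.00905 to 0.385. The annotation also holds a pseudogene, Ptges3-ps, and uniquely mapped tags alone were counted, so the absolute level is uncertain. Summed per length, the 3 prostaglandin E synthases reached 64.1, 59.0 and 74.1 CPM per kb in FS3A, FS3B and FS5A, against 104, 130 and 123 CPM per kb in WT1A, WT2A and WT2B. Ptges made up 2.84, 3.49 and 0.700% of that sum in the C234W libraries and 1.71, 0.548 and 0.410% in the wild-type libraries.

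Fold changes also differed by transcript length. Split into 5 length classes, tested genes under 1672 bases were at a median of -0.34 on the log2 scale, and those of 4985 bases or more at 0.28. Ptges2, Ptges3, Pla2g12a and Hpgd, of 1710 to 1944 bases, are in the class from 1672 to 2554 bases, whose median was -0.10. With the length trend of each library removed, the log2 fold changes were -0.876 for Ptges2, -0.744 for Ptges3, 1.75 for Pla2g4a, 0.768 for Hpgd and -0.344 for Pla2g12a. Those of Ptgds and Pla2g6 moved by over 1.5 times, to -0.370 and 0.0795, and those of Ptgs1, Ptgs2 and Ptges were -0.812, 1.24 and 0.416. By that setting 4 members were at an unadjusted p under 0.05, against 20.5% of tested genes, and edgeR called 0 genes of all. The 12 rod markers, none at 0, summed to between 71950 and 95190 CPM in C234W and 109100 and 169100 CPM in wild type. In edgeR 0 of 12 passed. At an unadjusted p under 0.05, 6 were lower, against 13.5% of tested genes, and DESeq2 called 6, against 11.9% of the genes it tested. The 10 endothelial markers, none at 0, summed to between 286 and 349 CPM in C234W and 199 and 231 CPM in wild type. In edgeR 0 of 10 passed. At an unadjusted p under 0.05, 4 were higher, against 11.9% of tested genes, and DESeq2 called 4, against 11.9% of the genes it tested. The 11 microglia and macrophage markers summed to between 60.5 and 99.3 CPM in C234W and 77.0 and 116 CPM in wild type, and 0 of 11 passed by either tool. The 10 Müller glia markers summed to between 4563 and 6439 CPM in C234W and 5936 and 7865 CPM in wild type. In edgeR 0 of 10 passed, and by log2 fold change 6 were below 0 and 4 above it. At an unadjusted p under 0.05, 3 were lower, against 13.5% of tested genes, and DESeq2 called 1, against 11.9% of the genes it tested. The 10 ciliary body and iris markers summed to between 253 and 265 CPM in C234W and 168 and 248 CPM in wild type, and 0 of the 7 tested passed by either tool. Most of that sum was Aqp1, at 230, 193 and 169 CPM in the C234W libraries and 204, 115 and 108 CPM in wild type. By log2 fold change 5 of the 7 were above 0 and 2 (Zic1 and Kcnj13) below it, with a median of 0.084. The part of these cell types in the members' values was not tested.

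Hpgd, the dehydrogenase that inactivates prostaglandins, had 8.10, 7.97 and 9.88 CPM in FS3A, FS3B and FS5A, against 4.38, 6.24 and 5.74 CPM in WT1A, WT2A and WT2B. Every C234W library lay above every wild-type library. The difference of 0.66 on the log2 scale (SE 0.247) missed the threshold in edgeR (adjusted p = 0.147) and in all 15 alternatives.

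**Figure D4:**
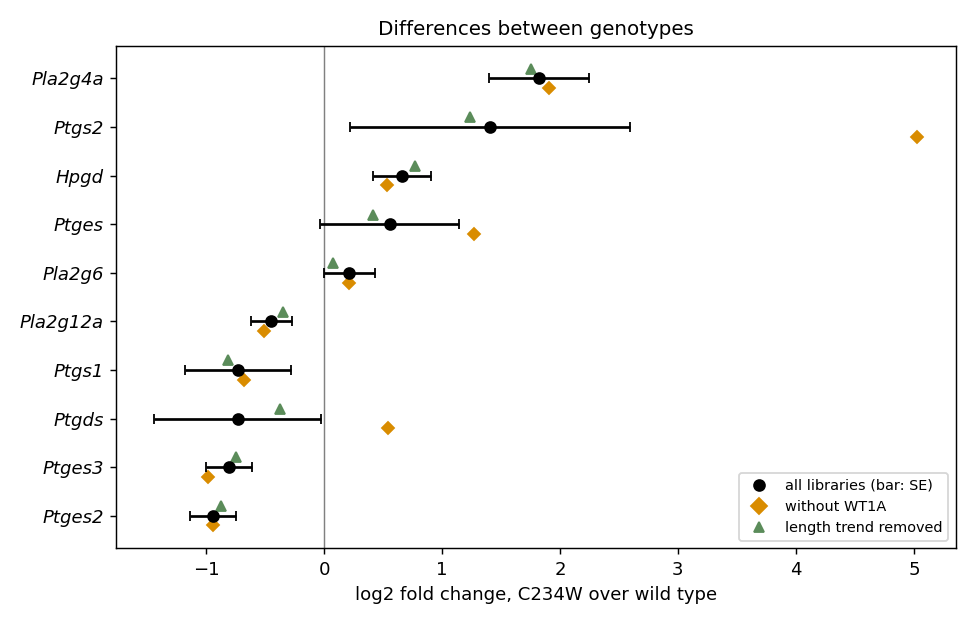
Log2 fold change of C234W over wild type for each member in edgeR with all libraries (black, bars are SE), without WT1A (orange) and with the length trend of each library removed (green). Ptgs2 is at 5.03 without WT1A and 1.41 with it, and Ptgds at 0.544 without it and -0.73 with it.

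The other genes of the pathway were taken from 7 lists of 126 symbols, of which 122 were in the table and 78 were tested. None passed in edgeR, with 19 at an unadjusted p under 0.05 (10 higher and 9 lower), a share of 24.4% against 25.4% of tested genes. DESeq2 called 8 of them, where it called 11.9% of all genes it tested, and limma-voom 0, and their median log2 fold change was 0.022. The unadjusted share was thus near that of all genes.

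Among 19 tested genes listed with phospholipases and related acyl hydrolases, 9 were at an unadjusted p under 0.05 (47.4%, against 25.4% of all tested genes). Of these 9, 5 were higher and 4 lower. DESeq2 called 5 of the 19 (against 11.9% of all genes it tested). The 19 also hold Plaa (1 of the 9) and Pafah1b1, which are not such enzymes themselves. The smallest p belonged to Pnpla3, a lipid droplet acyl hydrolase, with 78.4, 41.6 and 68.4 CPM in FS3A, FS3B and FS5A, against 34.7, 24.3 and 20.2 CPM in WT1A, WT2A and WT2B. Its groups did not overlap, and its log2 fold change was 1.25 (SE 0.279, edgeR adjusted p = 0.0564). Pla2g4e, another member of the cytosolic phospholipase family, averaged 7.92 ± 0.513 CPM in C234W and 3.42 ± 0.784 CPM in wild type (SD, n = 3 each, log2 fold change 1.21, edgeR adjusted p = 0.0571). Without WT1A, edgeR called 8 of the 84 genes of all 7 lists then tested, against 18.5% of all genes, among them Pnpla3 (1.5) and Pla2g4e (1.04). The median log2 fold change of these 19 was -0.176.

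Of 11 tested genes listed with other prostanoid synthases and reductases, 0 passed in edgeR or DESeq2, which called 1.46% and 11.9% of all genes tested. At an unadjusted p under 0.05 there were 2 (18.2%, against 25.4% of all tested genes). These were Ptgr2, a prostaglandin reductase, at 33.8 ± 2.55 CPM in C234W and 45.9 ± 3.64 CPM in wild type, and the carbonyl reductase Cbr1, at 27.8 ± 4.89 and 38.1 ± 3.23 CPM in C234W and wild type (SD, n = 3 each). Of 13 prostanoid receptors and transporters 4 were measured above the filter, and 0 passed in edgeR or DESeq2. At an unadjusted p under 0.05 there was 1 (25%, against 25.4% of all tested genes). The transporter Slco3a1 averaged 8.13 ± 3.28 CPM in C234W and 4.63 ± 1.30 CPM in wild type, and the prostaglandin F receptor Ptgfr 3.26 ± 1.91 CPM in C234W and 1.30 ± 0.960 CPM in wild type (SD, n = 3 each), with groups that overlapped for both. The other 9, including the prostaglandin E receptors Ptger2, Ptger3 and Ptger4, were below the filter.

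Lipoxygenases and epoxygenases use the same fatty acids. Of 7 tested lipoxygenase and leukotriene genes, 0 passed in edgeR or DESeq2. Mgst3 alone was at an unadjusted p under 0.05 (14.3%, against 25.4% of all tested genes). It had 19.1 ± 2.40 CPM in C234W and 26.8 ± 2.92 CPM in wild type (SD, n = 3 each). Alox5, the leukotriene-forming lipoxygenase, was next at 1.04 ± 0.489 and 0.662 ± 0.385 CPM in C234W and wild type (SD, n = 3 each). Of 8 tested genes listed with epoxygenases and epoxide hydrolases, a list that also holds Cyp4f13, Cyp4f16 and Cyp4v3 of another family, 0 passed by either tool. At an unadjusted p under 0.05 there was 1 (12.5%, against 25.4% of all tested genes). Ephx2, the soluble epoxide hydrolase, had this smallest p, with 19.5 ± 4.08 CPM in C234W and 30.6 ± 4.4 CPM in wild type (SD, n = 3 each, log2 fold change -0.65, edgeR adjusted p = 0.110). Cyp4v3 was next, at 12.97 ± 2.02 and 9.94 ± 1.98 CPM in C234W and wild type (SD, n = 3 each).

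Diacylglycerol and endocannabinoid lipases offer another route of fatty acid release. Of 14 tested, 0 passed in edgeR and 4 (28.6%, against 25.4% of all tested genes) were at an unadjusted p under 0.05. DESeq2 called 2, against 11.9% of the genes it tested. Napepld, which forms N-acylethanolamines, averaged 9.91 ± 1.53 CPM in C234W and 5.61 ± 0.352 CPM in wild type, and Abhd12, a lysophosphatidylserine lipase, 125 ± 26.0 CPM in C234W and 198 ± 25.2 CPM in wild type (SD, n = 3 each). Of 15 tested regulators of phospholipase A2 and cyclooxygenase, 0 passed in edgeR. At an unadjusted p under 0.05 there was 1 (6.67%, against 25.4% of all tested genes), and DESeq2 called 1 (against 11.9% of the genes it tested). It was Nfkb1, a subunit of the NF-kB transcription factor, with 37.5, 20.6 and 23.2 CPM in FS3A, FS3B and FS5A, against 18.3, 11.4 and 8.46 CPM in WT1A, WT2A and WT2B (log2 fold change 1.09, edgeR adjusted p = 0.0940). Hsp90ab1, the chaperone that Ptges3 assists, was next, at 468 ± 105 CPM in C234W and 622 ± 161 CPM in wild type (SD, n = 3 each).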

How the data were processed

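Per the series' design text and the submitters' processing notes, reads of strand-specific TruSeq poly-A libraries were mapped to mm10 with STAR 2.7.8a, and exonic tags with a unique position were counted by HOMER 4.11, strand-specifically (minus) and for a single isoform at each locus. Per the file headers, the deposited table holds raw estimated counts without normalization; its values come in steps of 0.5 and were rounded to whole numbers. Transcript lengths are those of the deposited table. No sample column was left out. Genotypes were compared in edgeR 4.0.16 (R 4.3.3) with filterByExpr, TMM scaling and the quasi-likelihood test (robust, no covariate), adjusted by Benjamini-Hochberg over all genes. Values are TMM-scaled CPM, and fold changes are C234W over wild type. DESeq2 1.42.0 and limma-voom (limma 3.58.1) were alternatives. The smallest chi-square per degree of freedom between libraries, 9.97 for WT2A and WT2B, showed no duplicate. The members, the pathway and marker lists, the tests and the alternatives were chosen with earlier results of these data known; the gliosis and early gene lists, and unrounded counts, were added after seeing values. Named pathway genes are the 2 with the smallest p in each pathway list; marker genes were named after their values were seen. The scripts were tested on simulated data.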

Additional observations from a re-analysis of the deposited data

How the results depend on the processing

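The 10 log2 fold changes kept their direction in every one of 15 alternatives, apart from Ptgds without WT1A (0.544; -1.18 without WT2B). The number of members called was 0 with edgeR, 1 with no filter, 3 by DESeq2, 1 by limma-voom and 0 to 4 with 1 library left out, the 4 without WT1A. For the pathway lists the 0 became 1 with no filter, 8 by DESeq2 and 0 to 8 with 1 library left out, the 8 without WT1A. Over all genes, 215 became 353 with no filter, 1719 by DESeq2, 0 with RLE scaling, total-count scaling, the length trend removed, libraries of the same name number summed or an adjusted p under 0.01, and 0 to 2775 with 1 library left out, the 2775 without WT1A. At an unadjusted p under 0.05, RLE and total-count scaling had 3753 and 4349 genes, the length setting 3006 and the summed libraries 1799. The cause was not tested. Total-count scaling put the all-gene median at 0.205 on the log2 scale, against 0.0234 with TMM. No paired analysis was possible because the columns carry none of the labels' replicate numbers. Low counts limit Pla2g4a, Ptgs1 and, in WT2A and WT2B, Ptgs2.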
